A study of Rattus norvegicus with 5 samples.

Results

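The genes described here encode the subunits of the proteasome and the proteins that assemble, activate or inhibit it. They were taken as all probes whose platform symbol begins with Psma, Psmb, Psmc, Psmd, Psme or Psmf, without Psmb8, Psmb9 and Psmb10, the subunits of the immunoproteasome. The rule found 52 probes for 38 genes, among 33849 discovery probes and 12198 named genes on the array. The core particle was represented by 11 genes on 14 probes and the regulatory particle by 17 genes on 20 probes. The remaining genes encode 3 assembly chaperones, 4 activators and 1 inhibitor, apart from Psmc3ip and Psme3ip1, which share the prefix but are not proteasome parts. On 2 probes the platform names another gene beside Psma3, so Psma3 has no value of its own, and Psma8, Psmb5, Psmb6 and Psmb11 were not analysed here.

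RNA was measured on 5 single-colour CodeLink arrays, which carry 1 oligonucleotide probe per spot, 1 array for each RNA. N1 and L2 are rat hepatocellular carcinoma lines with high metastatic ability, and C5F and C6 are such lines with low ability. All 4 lines were established from male F344 rats that had received N-nitrosomorpholine and diethylnitrosamine, with an age of 31 weeks in the labels, and the liver came from 1 male SD rat of 50 weeks without treatment. The 2 lines of a class served as its replicates and the liver had none, so culture, tumour, strain, age and carcinogen treatment cannot be told apart in a comparison with liver.

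The proteasome degrades proteins that carry chains of ubiquitin. Its core particle is a barrel of stacked rings, in which the outer alpha subunits (Psma genes) form a gate and the inner beta subunits (Psmb genes) hold the proteolytic sites. The regulatory particle caps the barrel: a base of ATPases (Psmc genes) and scaffold subunits unfolds the substrate, and a lid removes its ubiquitin. PA28 (genes Psme1, Psme2 and Psme3) can replace this cap. Its alpha and beta subunits are induced by interferon and favour the production of antigenic peptides. The same holds for the immunoproteasome subunits, which replace 3 of the catalytic beta subunits. Subunit genes tend to be transcribed together, and the transcription factor Nrf1 (gene Nfe2l1) raises them when proteasome activity falls short.

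Promoter sequences show what the members share outside the array. RefSeq windows from 250 bases before to 50 bases after the start (assembly GRCr8) were found for 32 of the 36 proteasome genes, and Psma7, Psmd6, Psmd12 and Psmd14 had none. Both strands were searched for TGACNNNGC, the core of the element bound by Nrf1 and Nrf2, for CCAAT, the NF-Y box, and for CCGGAAG, a site of ETS factors, and each was counted on its own, so that matches can overlap, as in Psmb2, where CCAAT and TGACNNNGC share a base. CCGGAAG stood in 12 of the 32 member promoters (37.5%), against 8.75% of all 33469 promoters and 14.7% of the 10655 promoters of genes on the array. CCAAT stood in 17 (53.1%), against 37.5% of all promoters and 36.8% of those on the array, with 8 of 10 core genes and 5 of 14 regulatory particle genes among them. TGACNNNGC stood in 5 (15.6%), against 12.1% of all promoters and 14.4% of those on the array. A match is a description of letters and not a binding site. The 250 bases before the start are printed for a core and a lid gene whose signals were higher in every line than in liver. They are also printed for the PA28 genes Psme1 and Psme2, whose signals were lower in every line. Capitals mark the motifs, with ATTGG for CCAAT on the other strand.
Psmb7, chr3:42827471-42827720, minus strand: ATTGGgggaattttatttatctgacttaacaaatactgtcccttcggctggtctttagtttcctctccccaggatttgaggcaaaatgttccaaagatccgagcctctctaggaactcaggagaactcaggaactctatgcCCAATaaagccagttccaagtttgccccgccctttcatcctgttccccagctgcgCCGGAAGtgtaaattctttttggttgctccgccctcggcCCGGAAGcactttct
Psmd13, chr1:205393998-205394247, plus strand: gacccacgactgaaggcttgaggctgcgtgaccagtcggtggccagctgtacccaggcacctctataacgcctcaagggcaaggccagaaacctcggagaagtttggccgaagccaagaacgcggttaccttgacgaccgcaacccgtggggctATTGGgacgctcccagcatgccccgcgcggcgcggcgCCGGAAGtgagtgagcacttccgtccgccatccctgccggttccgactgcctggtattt
Psme1, chr15:33038721-33038970, plus strand: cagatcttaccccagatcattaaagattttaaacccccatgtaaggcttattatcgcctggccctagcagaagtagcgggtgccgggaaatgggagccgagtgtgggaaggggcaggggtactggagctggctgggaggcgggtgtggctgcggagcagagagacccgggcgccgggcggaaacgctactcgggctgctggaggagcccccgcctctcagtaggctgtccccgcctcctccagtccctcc
Psme2, chr15:33052752-33053001, minus strand: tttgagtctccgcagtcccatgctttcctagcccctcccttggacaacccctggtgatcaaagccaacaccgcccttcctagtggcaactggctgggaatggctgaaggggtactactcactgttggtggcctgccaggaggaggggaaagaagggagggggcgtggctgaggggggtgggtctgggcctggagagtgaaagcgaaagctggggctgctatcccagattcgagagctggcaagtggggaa
The Psmb7 and Psmd13 windows hold both CCAAT and CCGGAAG, whereas Psme1 and Psme2 are among the 7 members whose whole window held none of the 3 motifs. Those 7 also include Psmc4, Psmd2 and Psmd5, which differed from liver by 0.83, 1.37 and 1.03 and were higher in every usable line. The others, Psmc5 and Psmd8, had no usable liver spot. Motif content thus did not separate higher from lower members. Psme1 and Psme2 both lie on chromosome 15, with no other gene of the RefSeq table lying wholly between them. A gene that overlaps either of them was not counted.

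The share of probes detected was lowest in liver and highest in C5F. Above background were 32.7% of the discovery probes in N1, 36.0% in L2, 39.2% in C5F, 34.3% in C6 and 30.6% in liver. The median raw signal was also lowest in liver, 6.35, and highest in C5F, 12.3. After normalisation, the lowest signal called above background was 14.6 in liver and 7.87 in C5F, so dim genes were detected less readily in liver. Precision is limited by the small number of arrays. The hepatocyte markers marked the liver, with a summed normalised signal over 6 genes of 15.2 in N1, 21.7 in L2, 922 in C5F and 16.0 in C6, against 27600 in liver. Alb, the albumin gene, was near background in all 4 lines, and only C5F among the lines had hepatocyte markers above background, among them Tf and Ttr, the genes of the carrier proteins transferrin and transthyretin. Of 3 epithelial markers, the keratin gene Krt8 was above background in all 4 lines, Krt19 in the 3 lines with a usable spot, and Epcam in C5F and liver but not in L2. All 8 tested markers of dividing cells were higher in the lines. In bulk RNA, fewer cells of a type and less RNA per cell cannot be told apart. Scanner software had called 35 of the 260 member spots irregular, contaminated or masked, and these were left out, which removed 9 of the 52 liver spots.

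Across the core and the regulatory particle, signals in the carcinoma lines lay above liver by a similar amount. The median log2 difference of the lines minus liver was 0.79 over 10 core genes, a 1.73-fold level, with all 10 positive and a range of 0.14 to 1.49; with the authors' deposited normalised intensity Psma7 alone turned, to -0.02. Over 14 regulatory particle genes it was also 0.79, with all 14 positive and a range of 0.22 to 1.80. The median over all 11949 tested probes was 0.15, and 55.1% of them were positive. With the 2 core genes whose liver spots were near background set to their lower bound, the core median was 0.73. Among probes above background on all 5 arrays, all 4 lines exceeded liver for 15 of 18 member probes, where the background was 34.6% of 3338 probes. These 15 held all 5 core genes and all 9 regulatory particle genes measured that way, with medians of 0.81 and 0.67, against 0.06 over all such probes. Among probes with usable spots on all arrays the count was 22 of 27, with a background of 37.3%, and 2 of 27 lay below liver in all 4 lines, with a background of 34.5%. Markers of dividing cells moved with this shift, with a summed signal over 5 genes of 990 in N1, 821 in L2, 1100 in C5F and 1110 in C6, against 137 in liver, and their part in it was not tested.

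**Figure D1:**
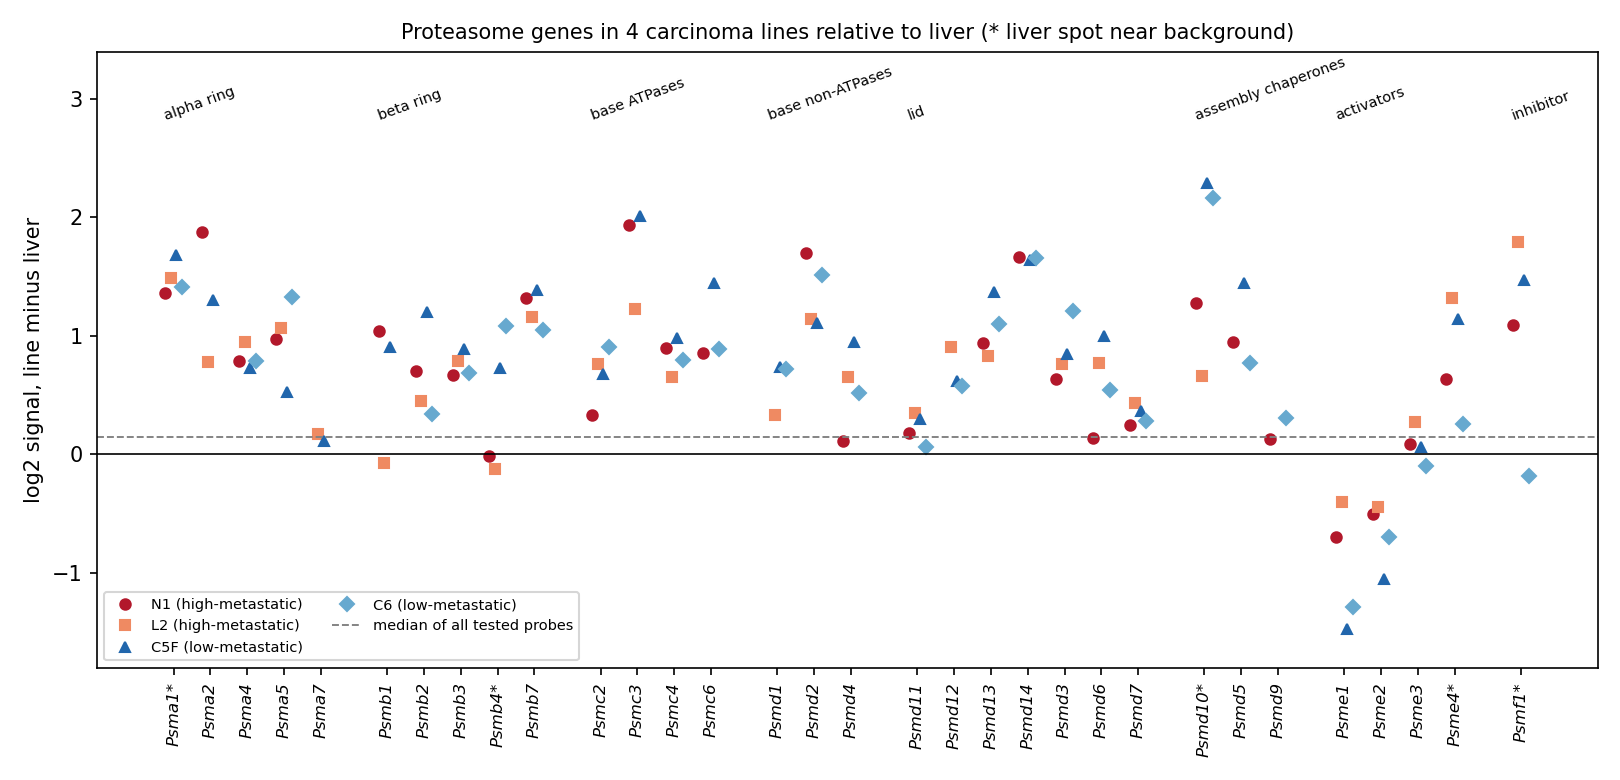
Log2 signal of each line minus liver for each proteasome gene, 1 probe per gene, ordered by role (y axis, log2 units), with symbols for the 4 lines, an asterisk where the liver spot was near background, and a dashed line at the median of all tested probes, 0.15. Most symbols sit above 0, and those of Psme1 and Psme2 sit below it in every line. Psmd10 and Psme4 are drawn by dim probes that their brighter probes did not follow.

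Few single members passed the test against liver. In limma's moderated test with Benjamini-Hochberg adjustment over all probes, 5 of 36 tested member probes were higher, where the background was 9.01% of probes, and 0 were lower, where the background was 9.38%. At an unadjusted p under 0.05 there were 17 of 36, against a background of 38.6%. With spots called irregular kept, 10 of 49 member probes were higher, where the background was 11.0%. Of the 5 calls, the probes of Psmd10 and of Psma3 with Ubr2 passed the filter on dim probes through C5F and C6 alone, and those of Psma1 and Psme3 were near background in liver. Without C5F, C6 or N1 0 members passed, and without L2 1 passed, Psme3, while over all probes 0 passed without C5F or without C6.

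In the alpha ring, Psma1 rose by its dimmer probe. That probe (GE1209182) had log2 signals of 4.29 in N1, 4.42 in L2, 4.61 in C5F and 4.34 in C6, against 2.93 in liver, where the spot was near background. The lines were at least 1.46-fold higher (limma adjusted p = 0.0367), and all 4 lay above liver with 0.32 between the lowest and highest line. The probe passed in 5 of 12 alternatives. It missed the threshold with arrays scaled to the median of their probes above background (adjusted p = 0.0640), with an offset of 50 (adjusted p = 0.0922), without the filter on dim probes (adjusted p = 0.0517) and without any 1 line. The brighter Psma1 probe had no usable liver spot, and with spots called irregular kept its difference was 1.79 ± 0.32 (SE, adjusted p = 0.0448). Psma6 had 8.72 in N1, 8.61 in L2, 8.62 in C5F and 8.29 in C6 and no usable liver spot; its difference with such spots kept was 1.25 ± 0.24 (adjusted p = 0.0498). Psma4 had 9.17 in N1, 9.34 in L2, 9.11 in C5F and 9.18 in C6, against 8.39 in liver, a difference of 0.81 ± 0.21 that missed the threshold (adjusted p = 0.0798). Psma7 was nearest to liver among the alpha genes, with 7.71 in L2 and 7.64 in C5F, against 7.54 in liver.

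In the beta ring, Psmb7 encodes the subunit with trypsin-like activity, the only catalytic subunit of the constitutive core measured here. Its log2 signals were 10.59 in N1, 10.42 in L2, 10.65 in C5F and 10.31 in C6, against 9.26 in liver, so that even the lowest line lay over 1 log2 unit above liver. The difference was 1.23 ± 0.25 (SE, adjusted p = 0.0567), and it passed in 4 of 14 alternatives. The adjusted p was 0.0396 among probes above background on all 5 arrays and 0.0307 with the 4 lines as 1 group, but 0.194 with scaling to the median, 0.178 with scaling to the 75th percentile and 0.187 with the deposited normalised intensity. Psmb3, a structural subunit, had 10.11 in N1, 10.23 in L2, 10.32 in C5F and 10.12 in C6, against 9.43 in liver, a difference of 0.76 ± 0.21 (adjusted p = 0.0966). Its second probe lacked a liver spot, and with irregular spots kept gave 0.07 ± 0.25. The 2 Psmb3 probes thus differ in the size of the step, and neither passed. Psmb4, another structural subunit, split the lines: it had 4.11 in N1 and 4.0 in L2, 4.86 in C5F and 5.21 in C6, against 4.12 in liver, where the spot was near background.

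The base of the regulatory particle holds the ATPases and the scaffold. Psmc3 had the largest difference of the regulatory particle genes, with log2 signals of 6.91 in N1, 6.20 in L2 and 6.98 in C5F, against 4.97 in liver, and no usable spot in C6. The difference of 1.80 ± 0.44 had an adjusted p of 0.112. Psmc5 lacked usable spots in liver and both low-metastatic lines, and passed with irregular spots kept, at 1.16 ± 0.21 (adjusted p = 0.0463). The other ATPases tested, Psmc2, Psmc4 and Psmc6, had differences of 0.67, 0.83 and 1.01 and did not pass. Psmd2 (Rpn1), the scaffold that docks ubiquitin shuttles, had 9.77 in N1, 9.21 in L2, 9.18 in C5F and 9.58 in C6, against 8.07 in liver. Its groups were at least 1 log2 unit apart, and the difference of 1.37 ± 0.35 had an adjusted p of 0.0816. Psmd4 (Rpn10), a ubiquitin receptor, was closer to liver, with 8.25 in N1, 8.79 in L2, 9.09 in C5F and 8.66 in C6, against 8.13 in liver.

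In the lid, Psmd14 (Rpn11) is the metalloprotease that cuts ubiquitin off the substrate. Its log2 signals were 9.52 in N1, 9.50 in C5F and 9.51 in C6, against 7.86 in liver, and its L2 spot was not usable. The measured lines lay within 0.02 of each other, and the difference was 1.66 ± 0.24, a 3.16-fold level (adjusted p = 0.0554). With irregular spots kept it passed at 1.68 ± 0.19 (adjusted p = 0.0225), and with the lines as 1 group at an adjusted p of 0.0221, but not with scaling to the median (adjusted p = 0.0611) or the deposited normalised intensity (adjusted p = 0.108). Psmd13 (Rpn9), a structural lid subunit, had 9.23 in N1, 9.13 in L2, 9.66 in C5F and 9.40 in C6, against 8.30 in liver, a difference of 1.06 ± 0.23 (adjusted p = 0.0615). Other lid genes lay closer to liver: Psmd11, a scaffold of the lid, had 8.02 in N1, 8.20 in L2, 8.15 in C5F and 7.90 in C6, against 7.85 in liver (0.22 ± 0.23, adjusted p = 0.525), and Psmd7 differed by 0.34 ± 0.21. The lid thus spanned most of the range of the whole regulatory particle.

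**Figure D2:**
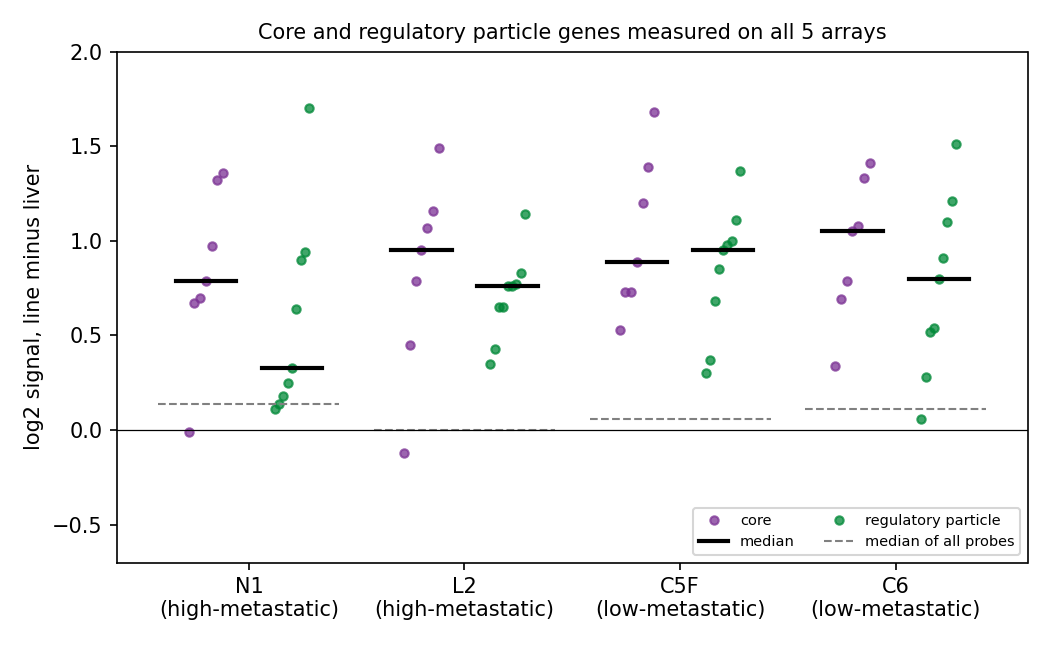
Log2 signal of each line minus liver (y axis) for the 7 core genes and the 9 regulatory particle genes with usable spots on all 5 arrays, by line, with black bars at the medians and dashed lines at the median of all such probes in that line. The regulatory particle median is 0.33 in N1 and between 0.76 and 0.95 in the other lines, and the core median is between 0.79 and 1.05 in all 4 lines.

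Line by line, among genes with usable spots on all 5 arrays, the core medians lay closer together than those of the regulatory particle. Over 7 core genes with usable spots on all 5 arrays, the median difference from liver was 0.79 in N1, 0.95 in L2, 0.89 in C5F and 1.05 in C6, an SD of 0.11 between the 4 lines. Over 9 regulatory particle genes it was 0.33 in N1, 0.76 in L2, 0.95 in C5F and 0.80 in C6, an SD of 0.27. The median of all 8442 such probes stayed between 0.00 and 0.14. Over these 9 genes the regulatory particle median stood nearest to liver in N1, although all 9 were above it. Psmc3, Psmc6 and Psmd14, left out for an unusable spot in another line, lay 1.94, 0.86 and 1.67 above liver in N1. In C5F they lay 2.01, 1.45 and 1.64 above it. The core genes Psma2 and Psmb1, left out for their C6 spots, differed from liver by 1.88 and 1.04 in N1, but by 0.78 and -0.07 in L2. Psma7, also left out, differed by 0.17 in L2 and 0.11 in C5F. Of the core genes kept, Psma1 and Psmb4 had liver spots near background. The medians of both parts and their SDs therefore depend on which genes had usable spots. Among the 4 lines themselves the signals were close together: the distance from the lowest to the highest line had a median of 0.43 over 9 core probes and 0.53 over 11 regulatory particle probes, against 0.65 over 5326 probes above background in all 4 lines. Those 5326 probes were not matched to the members for brightness. Psmd7 had the narrowest distance of the members, 0.18, and Psmb4 the widest, 1.21. The members were not tested against each other, since they share the same arrays.

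Among the assembly chaperones, Psmd10 depended on the probe, and the inhibitor Psmf1 was near background in liver and 2 of the lines. Psmd10 (gankyrin), a chaperone of the base that is also known as an oncoprotein of hepatocellular carcinoma, had 1 of its 4 probes among the 5 calls. That probe (GE1306468) had 3.73 in N1, 3.13 in L2, 3.83 in C5F and 3.96 in C6, against 1.34, the floor, in liver, and it was above background in C5F and C6 alone. Its fitted difference had an adjusted p of 0.0318, but it had passed the filter through those 2 lines alone, and no direction or fold is given because the mean of the lines lay below the lowest signal called above background in liver. Another dim Psmd10 probe (GE1113534) had 3.53 in N1, 2.91 in L2, 4.54 in C5F and 4.42 in C6, against 2.25 in liver, and was likewise above background in C5F and C6 alone. The 2 brighter Psmd10 probes did not follow: with irregular spots kept their differences were -0.25 ± 0.23 and 0.30 ± 0.22, so that the 4 probes disagree and the gene's direction is not settled. Psmf1 (PI31), named for inhibiting the core, had 3.15 in N1, 3.85 in L2, 3.53 in C5F and 1.87 in C6, against 2.06 in liver, with spots above background in L2 and C5F alone (adjusted p = 0.396). Psmd5 and Psmd9, the other base chaperones, gave differences of 1.03 and 0.22.

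The PA28 genes Psme1 and Psme2 lay on the other side of liver, without passing the test. Psme1, the alpha subunit, had log2 signals of 9.56 in N1, 9.86 in L2, 8.79 in C5F and 8.97 in C6, against 10.26 in liver. Psme2, the beta subunit, had 8.23 in N1, 8.30 in L2, 7.68 in C5F and 8.03 in C6, against 8.73 in liver. For both genes all 4 lines lay below liver, which made them the 2 of 18 member probes above background on all 5 arrays with that order, where the background was 30.3%. The differences were -0.97 ± 0.24 (SE, adjusted p = 0.0790) and -0.67 ± 0.24 (adjusted p = 0.146). Psme1 passed in 2 of 14 alternatives, with arrays scaled to the median of their probes above background (-1.37, adjusted p = 0.0428) or to the 75th percentile (-1.44, adjusted p = 0.0496). The alpha and beta subunits form 1 ring together, and their genes had the same order of lines, with L2 highest and C5F lowest.

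The immunoproteasome subunits, set apart from the members by the rule, also stood below liver. Psmb8, Psmb9 and Psmb10 each had irregular spots in 2 of the 4 lines, so they could not be tested without them. With irregular spots kept, Psmb8 had 7.18 in N1, 6.05 in L2, 5.67 in C5F and 7.64 in C6, against 9.96 in liver, a difference of -3.32 ± 0.98 (adjusted p = 0.102). Psmb9 had 6.39 in N1, 6.30 in L2, 4.81 in C5F and 6.01 in C6, against 8.19 in liver, a difference of -2.32 ± 0.55 (adjusted p = 0.0689). Psmb10 fell, with 7.75 in N1, 7.76 in L2, 7.64 in C5F and 8.04 in C6, against 9.12 in liver, a difference of -1.32 ± 0.25 (adjusted p = 0.0488, with 8.82% of all probes lower in that setting). All 4 lines lay below liver for each of the 3 genes. Immune cells are known to carry much of these subunits. In the lines 4 of 6 tested macrophage markers and 2 of 4 tested lymphocyte markers were lower, where the background was 9.38% of probes. Markers of other liver cells were lower as well, 4 of 4 tested for sinusoidal endothelium and 4 of 6 for hepatocytes. The summed signal over 7 macrophage markers was 73.0 in N1, 60.2 in L2, 63.4 in C5F and 92.6 in C6, against 4430 in liver. Over 6 lymphocyte markers it was 38.2 in N1, 24.0 in L2, 22.8 in C5F and 23.4 in C6, against 1140 in liver. Cd74, the invariant chain of antigen-presenting cells, a gene of the lymphocyte list, was at the floor of 1.34 in all 4 lines, against 9.48 in liver. Most of the liver sum of that list came from Cd74 and Nkg7 (8.61 in liver), and Cd3d (4.49 in liver) was lower in the lines too. Cd2 and Cd8a were at the floor in liver as well, and Cd5 had 4.48 in N1, against 3.26 in liver. Outside the sum, Cd3e and Cd79b were above background in every line with a usable spot, Cd3e below its liver signal. The part of any of these cell types in the PA28 and immunoproteasome signals was not tested.

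**Figure D3:**
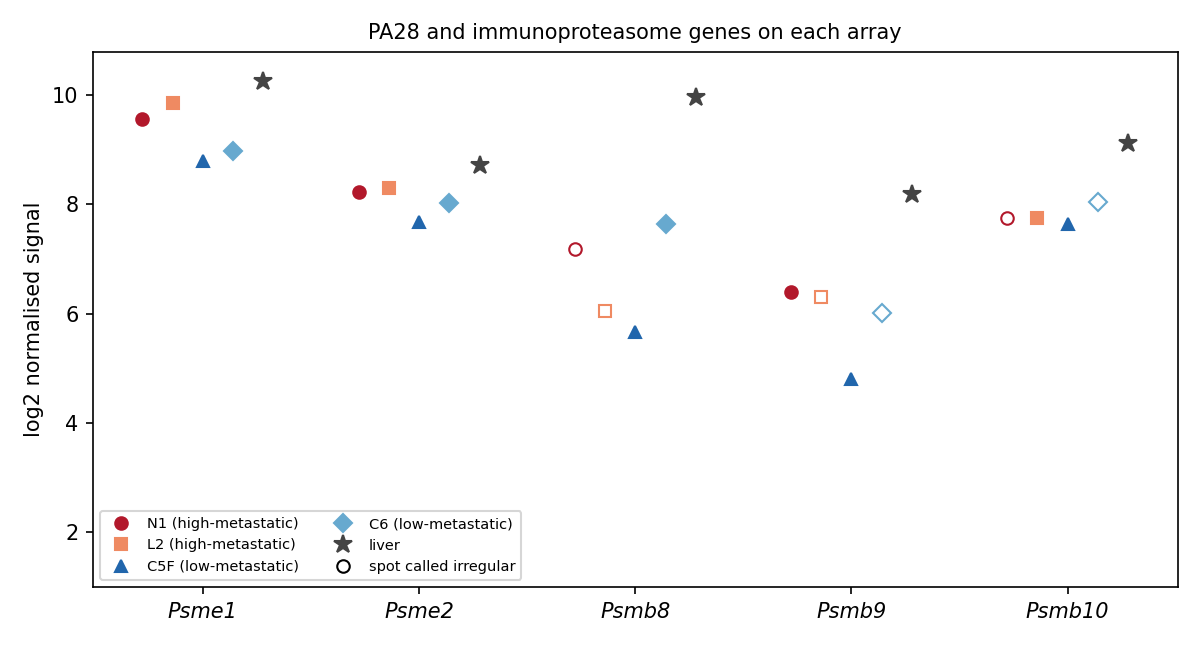
Log2 normalised signal (y axis) of the PA28 genes Psme1 and Psme2 and of the immunoproteasome genes Psmb8, Psmb9 and Psmb10 on each of the 5 arrays, with open symbols for spots called irregular. The liver star is the highest symbol for each of the 5 genes, and the gap to the lines is widest for Psmb8.

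The other activators depended on the probe as well. Psme3, which encodes the nuclear PA28 gamma, rose by its dimmer probe (GE14851), with 5.97 in N1, 5.65 in L2, 6.27 in C5F and 6.29 in C6, against 3.67 in liver, where the spot was near background. The lines were at least 4.52-fold higher by that probe (adjusted p = 0.0185). By the brighter probe (GE1265170) the signals were 8.67 in N1, 8.85 in L2, 8.64 in C5F and 8.48 in C6, against 8.58 in liver, a difference of 0.08 ± 0.22 (adjusted p = 0.808). The 2 probes disagree, so no single direction is given for Psme3. Psme4, which encodes the activator PA200, had 7.57 in N1, 7.69 in L2 and 7.95 in C5F by its brighter probe, which lacked usable spots in C6 and liver. With irregular spots kept this probe differed from liver by 0.02 ± 0.22. Its dim probe had 3.13 in N1, 3.82 in L2, 3.63 in C5F and 2.75 in C6, against 2.49 in liver (adjusted p = 0.308).

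The remaining 2 of the 5 calls came from probes that do not measure a proteasome gene alone. Psmc3ip, a meiotic recombination factor that binds Psmc3, had 7.23 in N1, 7.41 in L2, 7.02 in C5F and 7.5 in C6, against 5.65 in liver, and rose by 1.64 ± 0.29 (adjusted p = 0.0450). The probe named for both Psma3 and Ubr2 had 3.88 in N1, 3.05 in L2, 3.97 in C5F and 3.86 in C6, against the floor of 1.34 in liver, with a limma adjusted p of 0.0432. It passed the filter through C5F and C6 alone, and the mean of the lines lay below the lowest signal called above background in liver, so no direction is given. Its signal cannot be credited to Psma3.

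Other genes of the pathway gave few calls. Across lists of core assembly chaperones, associated proteins, shuttles with the p97 ATPase, ubiquitin enzymes and transcription factors of the subunits, 0 genes passed against liver by their brightest probe. In that order 2, 3, 9, 1 and 4 genes were tested, with Ddi2 in 2 lists. Over all probes 9.01% were called higher and 9.38% lower, so the absence of calls among so few genes says little about the lists. Uba1, the main enzyme that activates ubiquitin, had 9.58 in N1, 9.72 in L2, 10.10 in C5F and 9.92 in C6, against 8.74 in liver, a difference of 1.09 ± 0.21 (adjusted p = 0.0532). Sem1, a small lid subunit named outside the rule, had 8.95 in N1, 8.94 in L2, 8.74 in C5F and 8.64 in C6, against 8.03 in liver, a difference of 0.79 ± 0.20 (adjusted p = 0.0776) that equals the median of the regulatory particle genes. Psmg1 and Psmg2 form a chaperone of alpha ring assembly: Psmg1 differed by 0.01 ± 0.25, and the 2 Psmg2 probes by 1.21 ± 0.29 and -0.96 ± 0.31. Among the other associated proteins and shuttles, Usp14, a deubiquitinase of the particle, differed by 0.77 ± 0.51, the ubiquitin receptor Adrm1 was near background in liver, and Ufd1 and Ubqln4, which carry ubiquitinated substrates, differed by 0.83 ± 0.45 and 0.61 ± 0.26. Genes that act on Nrf1 gave negative values that did not pass. Ngly1, which strips its sugars, had 5.40 in L2, 5.0 in C5F and 4.85 in C6, against 6.84 in liver, a difference of -1.68 ± 0.25 (adjusted p = 0.0590), while its next probe, near background in liver, gave 0.38 ± 0.56. Ddi2, the protease that cuts Nrf1, differed by -0.96 ± 0.26 (adjusted p = 0.130). Nfe2l1, named in addition to the rule for named genes, differed by -0.78 ± 0.49 (adjusted p = 0.323) and -0.24 ± 0.23 (adjusted p = 0.500) on the 2 probes that could be tested, and Nfyc, a subunit of NF-Y, by 0.32 ± 0.24. Dim second probes passed for Akirin2, a factor for nuclear import of proteasomes (at least 1.53-fold, adjusted p = 0.0248), and for Ube3c, a ubiquitin ligase at the proteasome (at least 1.75-fold, adjusted p = 0.0167). The brighter Ube3c probe showed a smaller step, with 6.35 in C5F and 5.92 in C6, against 5.69 in liver, and no usable spot in N1 or L2. The brighter Akirin2 probe had no usable liver spot. A dim probe of Uba6, the second ubiquitin-activating enzyme, had a limma adjusted p of 0.0357, while the brightest Uba6 probe lay near liver. The dim probe passed the filter through C5F and C6 alone. Its mean over the lines lay below the lowest signal called above background in liver, so no direction is given.

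Setting the high-metastatic lines N1 and L2 against C5F and C6 asks whether proteasome transcripts go with metastatic ability. No member passed: limma called 0 of 13741 probes (0%), with a lowest adjusted p of 0.489, and 0 with robust moderation. At an unadjusted p under 0.05 there were 3 of 43 member probes, against a background of 7.31%. The median difference of the high- minus the low-metastatic lines was 0.02 over 11 core genes and -0.25 over 15 regulatory particle genes, against 0.00 over all probes. The regulatory particle median was -0.24 to -0.06 when 1 line was left out, with -0.06 without C5F and -0.13 without N1, -0.50 with arrays scaled to the median of their probes above background, and -0.12 with irregular spots kept. All 5 ATPase genes with a value were negative, from -0.43 for Psmc3 to -0.11 for Psmc4, also under the other scalings, but Psmc1 turned without C5F and Psmc4 without L2. Under those scalings the sign was not particular to the ATPases. Every beta ring gene was negative under each of them, and every core and regulatory particle gene with a value was negative with scaling to the median. The core median turned to -0.34 with that scaling to the median, a scaling that moved the median of all probes to -0.12. Both high-metastatic lines lay above both low-metastatic lines for 4 of 30 member probes, where the background was 17.5%, and below them for 7 of 30, where it was 19.2%.

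**Figure D4:**
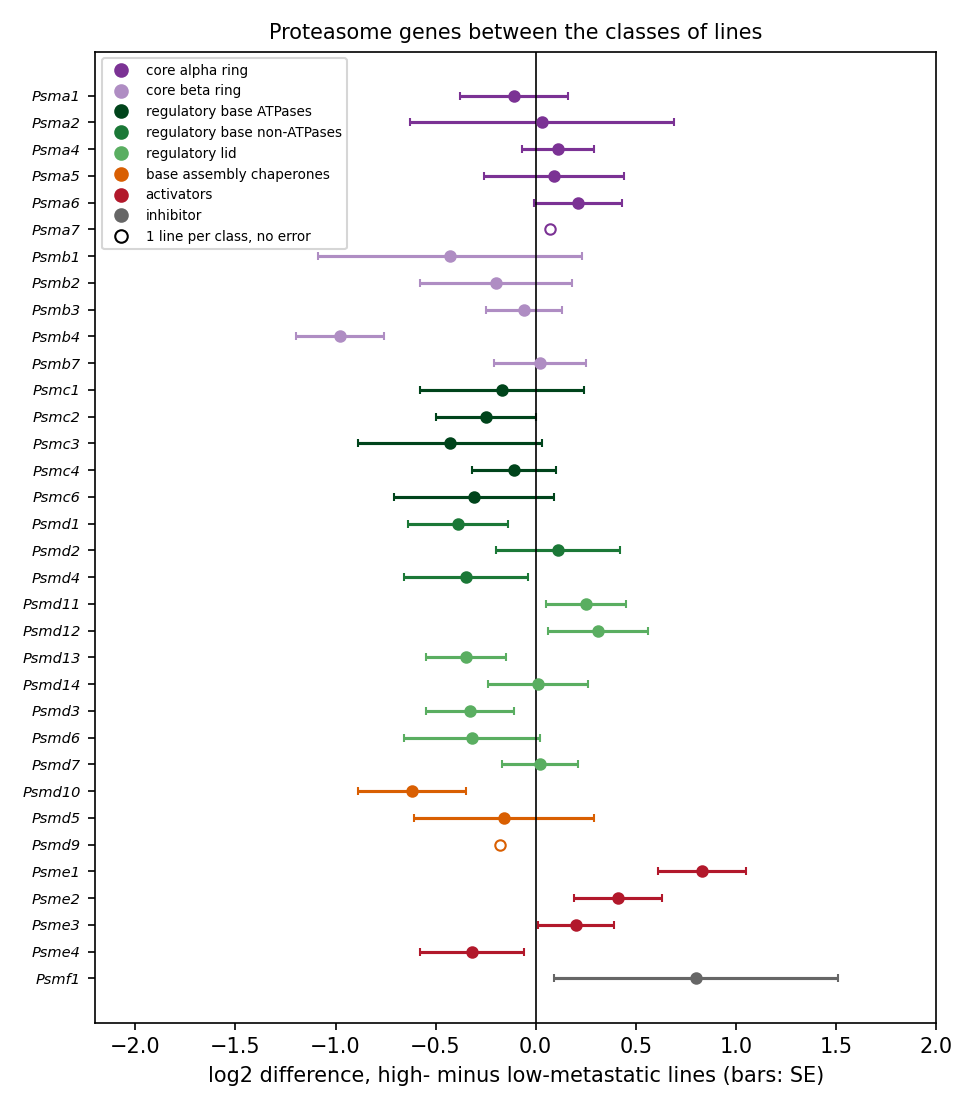
Log2 difference of the high- minus the low-metastatic lines (x axis) for each proteasome gene, 1 probe per gene, with bars of 1 SE and colours for the roles; open symbols have 1 line per class and no error. The base ATPases lie left of 0, Psmb4 lies furthest left at -0.98, and Psme1 lies furthest right at 0.83.

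Members whose classes did not overlap are given with their 4 lines, up to 6 per direction with the widest gap. Psme1, at 9.56 in N1 and 9.86 in L2, against 8.79 in C5F and 8.97 in C6, had the widest gap with the high-metastatic lines on top, 0.59, and a difference of 0.83 ± 0.22 (limma adjusted p = 0.670). Psme2 followed it with 8.23 in N1 and 8.30 in L2, against 7.68 in C5F and 8.03 in C6, a difference of 0.41 ± 0.22. Psme1 and Psme2 thus both stood nearer to liver in the high-metastatic lines. Psmd11 (probe GE1124155) had 9.12 in N1 and 9.17 in L2, against 8.78 in C5F and 9.02 in C6, and the brighter Psme3 probe had a gap of 0.03. By the Psmd11 probe GE19317 the classes overlapped, with 8.02 in N1, 8.20 in L2, 8.15 in C5F and 7.90 in C6. In the other direction, Psmb4 had 4.11 in N1 and 4.0 in L2, against 4.86 in C5F and 5.21 in C6, a difference of -0.98 ± 0.22 (adjusted p = 0.670). The dim Psmd10 probes GE1113534 and GE1306468 were near background in N1 and L2 and above it in C5F and C6 alone, so no difference is given for them. Psmd13, at 9.23 in N1 and 9.13 in L2, against 9.66 in C5F and 9.40 in C6, and the dim Psme3 probe, at 5.97 in N1 and 5.65 in L2, against 6.27 in C5F and 6.29 in C6, had differences of -0.35 and -0.48. The dim Psmd1 probe, at 4.07 in N1 and 4.24 in L2, against 4.34 in C5F and 4.41 in C6, had -0.22. Psmb7 (0.02 ± 0.23) and Psmd14 (0.01 ± 0.25) had class differences near 0. The sign of Psmb7 turned under all 3 other scalings, and that of Psmd14 turned with scaling to the median and with irregular spots kept.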

How the data were processed

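RNA of the 4 carcinoma lines and 1 liver was hybridised to 1 single-colour CodeLink array each. The authors deposited the scanner software's raw and normalised intensity of each spot with a quality call, per the file headers (CodeLink Expression Analysis 4.1). The series' own values are the same normalised intensity, with a largest difference of 0.

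The raw intensity was used here. Of 35129 spots per array, 1280 controls were removed, and spots with an irregular, contaminated or masked call were treated as missing. Signals were quantile normalised between arrays with limma 3.58.1 in R 4.3.3, floored at 2.53 (log2 1.34) and taken to log2. A probe was kept if liver or 2 lines had it above background, which left 16377, with 49 of the 52 member probes among them; a probe each of Psma3l, Psmd11 and Psmd5 was dim on every array. The platform annotation gave 1 gene to 16753 probes, several to 165 and none to 16931. Symbols were checked through 16836 of 16865 Entrez numbers in RefSeq (GRCr8).

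One limma model with the groups high-metastatic, low-metastatic and liver gave both contrasts, two-sided, adjusted by Benjamini and Hochberg over all tested probes at 0.05. The lone liver is assumed to vary like the lines, and since nothing shows separate cultures of a line, p-values measure the spread between lines of a class. Probes that left no residual degree of freedom have a difference but no test. For medians a gene was represented by the probe with the highest mean signal among those with a value in that comparison. Against liver this was not the brightest probe for Psma1, Psmd11, Psmd10 and Psme4. "At least" folds use the lowest signal above background in liver, 14.6, or the liver spot's own signal where that was higher, as for Psmb4. Since some spots near background lay above 14.6, these folds are nominal bounds. A slide or scan term was not possible with 1 array per slide.

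Every member could be named. Values on every array were given for members past the threshold, up to 6 members per direction with the widest gap between classes, and a short list of catalytic, lid, chaperone, activator and inhibitor genes; of each other list, genes past the threshold and up to 3 with the largest difference. The members and lists were chosen with earlier results of these data known. Alternatives changed the scaling, the offset (50), the quality calls, the filter, the moderation and the grouping of lines, or left out 1 line. The procedure was tested on simulated data. Software also included data.table, version 1.17.8, statmod 1.5.0 for the robust moderation and matplotlib 3.10.9.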

Additional observations from a re-analysis of the deposited data

Results flagged for a closer look

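Psmb4, a structural beta subunit, lay on both sides of liver by class. Its log2 signal was 4.11 in N1 and 4.0 in L2, both below the 4.12 of liver, and 4.86 in C5F and 5.21 in C6, both above it. The difference of the high- minus the low-metastatic lines was -0.98, with a limma adjusted p of 0.670. Whether the 2 classes differ in their step from liver was not tested apart from that contrast, because liver had 1 array. The liver spot was near background, and N1 and L2 lay close to it, so the order below liver rests on dim spots.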

How the results depend on the processing

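Across the alternatives, 569 values for single members kept their direction and side of the threshold, 18 newly passed it, 26 no longer passed and 13 turned; 93 summary values stayed close and 19 moved. Against liver, the 5 members higher became 3 with scaling to the median of probes above background, 10 with irregular spots kept, 2 without a filter on dim probes, 3 among probes above background on all 5 arrays, 8 with the lines as 1 group, and 0 to 1 when 1 line was left out. The 0 members lower became 1, Psme1, with scaling to that median or to the 75th percentile, and 1 without a filter. The core median of 0.79 became 0.92 with scaling to the median, 0.64 with an offset of 50, and 0.94 with irregular spots kept among probes above background on all 5 arrays, an alternative chosen after seeing the data. Leaving out 1 line gave 0.82 to 0.98, and the regulatory particle median 0.75 to 0.86. Scaling to the median moved the median of all probes to 0.29 against liver and to -0.12 between the classes. Between the classes the core median of 0.02 became -0.34 with that scaling, -0.17 with the 75th percentile, and -0.11 to 0.06 without 1 line. The regulatory particle median of -0.25 became -0.50 with the median, -0.42 with the 75th percentile, -0.12 with irregular spots kept, and -0.24 to -0.06 without 1 line. Class differences that turned were those of Psmb7 (-0.35 with the median, -0.31 with the 75th percentile, -0.16 with the deposited normalised intensity, and from -0.15 without C6, with -0.07 without N1, to 0.18 when 1 line was left out), Psmd11 (-0.01), Psmd14 (-0.07) and Psme3 (-0.04) with the median, Psmd14 (-0.04) with irregular spots kept, with or without the stricter filter, and Psmf1 (-0.03 without C6, up to 1.15 without another line). Against liver, Psma7 (-0.02) and the brighter Psme3 probe (-0.07) turned with the deposited normalised intensity. The causes were not tested. Leaving out a line also lowered the number of probes tested. No paired analysis was possible because no replicate number links the lines of the classes.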
